A study of Mus musculus with 9 samples.

Results

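The genes described here are 9 genes of the interferon response and of antigen presentation by MHC class I in the mouse retina, namely B2m, H2-K1, H2-D1, Irf7, Irf1, Isg15, Ifit1, Ifit3 and Psmb8. They were chosen by symbol and not by any measured value, though with earlier results of these data known. They make up 9 of the 25239 gene symbols listed for each library. All 9 were among the 15198 genes with a mean of at least 1 TPM over the libraries, which were the genes tested. TPM is a level corrected for gene length and library depth, so that levels of different genes can be set side by side.

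Bulk RNA-Seq was made from whole retinas at P42 (42 days) of C57BL/6J mice of 3 genotypes. Wild type mice (+/+) were compared with mice that carried 1 knock-in allele (Rbpms-CreERT2/+, here Cre/+) or 2 (Rbpms-CreERT2/CreERT2, here Cre/Cre). The knock-in joins P2A-CreERT2 to the C-terminus of Rbpms, so that CreERT2, a Cre recombinase that is inactive until it binds tamoxifen, is made wherever Rbpms is active, which in the retina is the retinal ganglion cells. Each genotype had 3 libraries, each from a pair of retinas, and the libraries were made to ask whether the knock-in changes the retinal transcriptome. No gene of the interferon system was altered in any group, and the sample labels name no tamoxifen or other agent. Since whole retinas were sequenced, fewer cells of a type and less RNA per cell cannot be told apart. The p-values measure the spread between these libraries.

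Interferons are cytokines that bind receptors on the cell surface and act through JAK kinases and STAT transcription factors. Genes induced by type I interferon often carry the interferon-stimulated response element (ISRE), which is bound by a complex that holds IRF9, and genes induced by interferon gamma often carry the gamma-activated site (GAS). The genes switched on in this way include antiviral effectors and the parts of the class I pathway, in which the proteasome cuts proteins into peptides, TAP carries the peptides into the endoplasmic reticulum, and a heavy chain with beta-2-microglobulin shows them to CD8 T cells. Neurons hold little class I at rest, and microglia are the resident immune cells of the retina.

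The promoters of the members were searched for the ISRE, for the GAS and for a kappaB site known from class I genes. Each window was the 250 bases before the RefSeq start (GRCm38.p6), and the motifs were searched on both strands in all 27025 windows of the table. The ISRE core, a repeat of GAAA with any 2 bases between the copies, was present in the windows of 4 of the 9 members, namely Isg15, Ifit1, Ifit3 and B2m, and in 3.05% of all windows. The GAS core, TTCNNNGAA, was found in the windows of Irf1 and Psmb8 and in 7.14% of all windows. The palindromic kappaB site of class I genes, set in capitals in the H2-K1 window shown here, was found in the windows of H2-K1 and H2-D1 and in 7 windows in all, or 0.0259%. In Irf7 no exact match to any of the 3 motifs was found in this window, and in H2-K1 and H2-D1 none to the ISRE or the GAS core. Variants of the motifs were not searched, so these windows may hold interferon elements of another form. The motifs were chosen with the sequences in view, so the counts are a description, and a match is not a measured binding site. The 4 windows below show the layout in an antiviral gene with overlapping ISRE cores, in one with separate cores, in the light chain and in a heavy chain. Capitals mark the motif, ISRE core in the first 3 and kappaB site in the last, and the B2m window is printed without its last base, which lies in an annotated exon. Exons of the annotation (GENCODE, GRCm38) also covered all 250 bases of the H2-D1 and Psmb8 windows, the motifs named there included, 123 bases of the Ifit1 window and 57 bases of the Irf7 window.
Isg15 promoter, chr4:156200819-156201068, minus strand: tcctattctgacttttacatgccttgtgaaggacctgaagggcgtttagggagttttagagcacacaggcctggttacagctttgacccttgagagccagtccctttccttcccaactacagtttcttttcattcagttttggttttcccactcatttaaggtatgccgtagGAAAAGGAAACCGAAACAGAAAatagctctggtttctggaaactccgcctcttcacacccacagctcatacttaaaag
Ifit3 promoter, chr19:34583279-34583528, plus strand: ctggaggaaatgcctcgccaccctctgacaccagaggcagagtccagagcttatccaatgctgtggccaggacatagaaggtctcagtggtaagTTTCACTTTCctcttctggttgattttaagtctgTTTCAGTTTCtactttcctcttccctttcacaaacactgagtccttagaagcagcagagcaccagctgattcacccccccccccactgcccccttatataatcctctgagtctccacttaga
B2m promoter, chr2:122147437-122147685, plus strand: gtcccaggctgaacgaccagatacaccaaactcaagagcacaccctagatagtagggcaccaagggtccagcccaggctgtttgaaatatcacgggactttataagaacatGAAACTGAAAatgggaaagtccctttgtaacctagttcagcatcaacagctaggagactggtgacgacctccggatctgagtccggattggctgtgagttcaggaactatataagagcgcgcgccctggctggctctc
H2-K1 promoter, chr17:34000348-34000597, minus strand: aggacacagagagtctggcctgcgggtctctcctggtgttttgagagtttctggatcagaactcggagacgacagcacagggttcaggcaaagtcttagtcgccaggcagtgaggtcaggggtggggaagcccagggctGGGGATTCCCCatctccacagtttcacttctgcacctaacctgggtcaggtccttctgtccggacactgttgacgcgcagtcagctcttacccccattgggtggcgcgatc

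In Isg15 the 3 ISRE cores overlapped and reached from 78 to 57 bases before the start. In Ifit3 the 2 cores lay 156 to 147 and 122 to 113 bases before the start and read on the opposite strand, as did the 2 cores of Ifit1 at 104 to 95 and 85 to 76 bases. The single core of B2m lay 139 to 130 bases before its start. The kappaB site lay 111 to 101 bases before the start in H2-K1, in the most upstream of 2 starts, and 171 to 161 bases before the start in H2-D1. The H2-K1 and H2-D1 windows were identical at 166 of 190 bases (87.4%) in their best alignment without gaps.

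The libraries held 4.05 to 4.65 aligned gigabases each, as read from the ratio of deposited coverage to FPKM. Rbpms, the targeted gene, was at 38.4 to 43.4 TPM in +/+, 31.3 to 33.1 TPM in Cre/+ and 19.1 to 24.2 TPM in Cre/Cre. The genotypes did not overlap, and no test result for Rbpms is given here. In this direction 10.3% of tested genes did not overlap for Cre/+ against +/+ and 7.23% for Cre/Cre against Cre/+. For Cre/Cre against +/+ the share was 10.8% in either direction. The paper reports no significant difference in Rbpms RNA, and similar RBPMS signal and cell number. Reads were aligned to mm10, and the part of the inserted sequence in these levels was not tested. As markers of retinal tissue, the summed level of 7 Müller glial genes was 5119 to 6253 TPM and that of 8 retinal ganglion cell genes, Rbpms among them, 1125 to 1635 TPM. Of the libraries, 3 stand apart in ways that touch results below. Cre/+ replicate 2 was high in interferon-stimulated genes and had the lowest lens marker sum. Cre/Cre replicate 1 had 9.21% of its TPM in the ribosomal transcript Rn45s against at most 0.336% elsewhere, and Cre/Cre replicate 2 had the highest lens marker sum, 1050 TPM. Y-linked transcripts were present in 3 libraries, 0 of +/+, 1 of Cre/+ and 2 of Cre/Cre, so genotype and sex were not balanced.

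All 9 members were detected in all 9 libraries. Their mean levels over the libraries ran from 79.1 ± 9.14 TPM (SD, n = 9) for the heavy chain H2-D1 to 5.04 ± 2.66 TPM for the antiviral gene Ifit1. Between them, in falling order, were B2m at 56.9 ± 10.5, H2-K1 at 38.7 ± 7.95, Ifit3 at 21.0 ± 7.76, Irf7 at 18.1 ± 3.83, Isg15 at 9.70 ± 5.001, Irf1 at 7.77 ± 1.02 and Psmb8 at 5.14 ± 1.44 TPM. The mean read depth over the bases of a member was between 2.89, the lowest for Ifit1, and 118, the highest for H2-D1. Class I chains thus headed the order and the inducible proteasome subunit stood near its end. The ranges of every pair of neighbours in this order overlapped. Within single libraries the order was firm for B2m over H2-K1, Irf7 over Isg15 and Irf1 over Psmb8, each higher in 9 of 9. It was not firm for Ifit3 over Irf7 (6 of 9), Psmb8 over Ifit1 (5 of 9) or Isg15 over Irf1 (4 of 9).

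**Figure D1:**
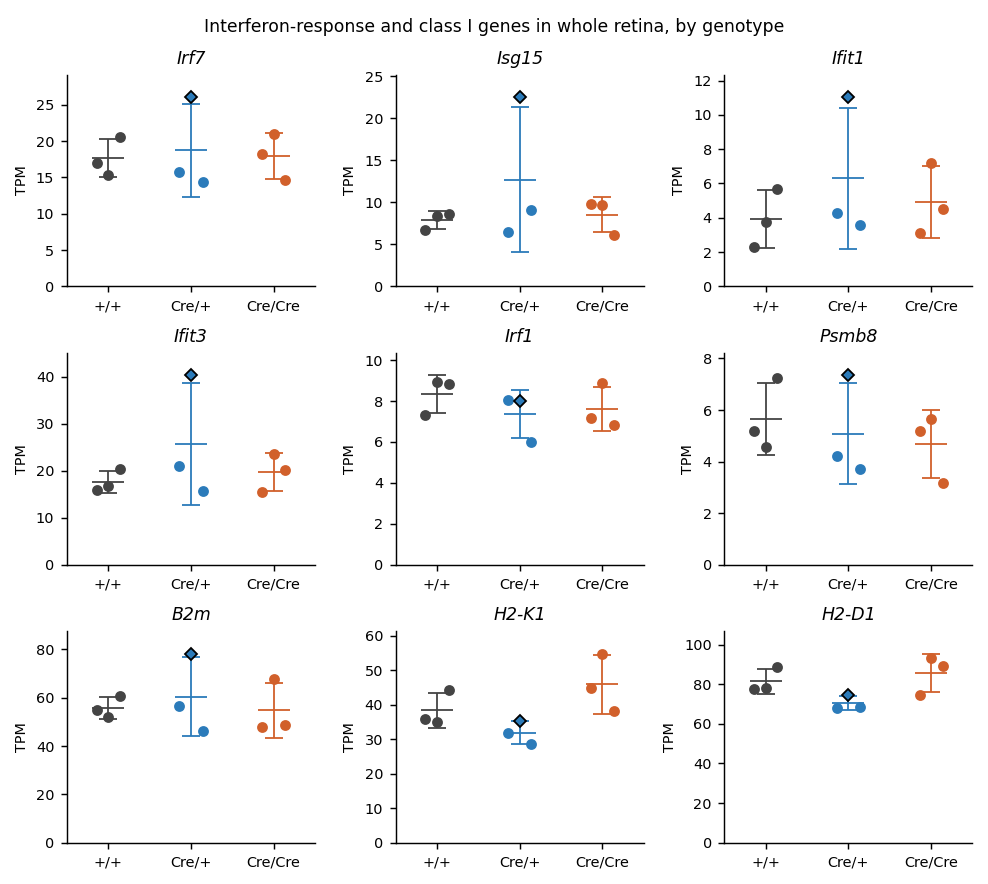
Levels of the 9 members in TPM (y axis, linear, from 0) in each of the 9 libraries, with a panel for each gene, points for libraries by genotype, a long bar for the genotype mean and short bars for 1 SD either side. The diamond is Cre/+ replicate 2. Cre/+ replicate 2 is the highest point for Isg15 (22.5 TPM), Ifit1 (11.03 TPM) and Ifit3 (40.3 TPM), and the Cre/Cre points of H2-K1 lie above those of Cre/+.

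Irf7 (chr7:141263183-141266424, minus strand) encodes the factor that drives the interferon alpha genes and is itself induced by interferon. It was at 17.0, 15.4 and 20.5 TPM in +/+ replicates 1 to 3, at 15.7, 26.0 and 14.4 TPM in Cre/+ and at 18.2, 21.0 and 14.6 TPM in Cre/Cre. The genotypes overlapped throughout, and the highest value was that of Cre/+ replicate 2. Irf1 (chr11:53770014-53778374, plus strand), a factor induced above all by interferon gamma, was the steadiest of the antiviral and regulatory members. Its values were 7.30, 8.92 and 8.81 TPM in +/+, 8.06, 7.98 and 6.00 TPM in Cre/+ and 7.16, 8.86 and 6.85 TPM in Cre/Cre. All 3 genotypes overlapped, and Cre/+ replicate 2 was not set apart.

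Isg15 (chr4:156199424-156200818, minus strand) encodes a ubiquitin-like protein that is joined to other proteins in the antiviral response. It was at 6.71, 8.40 and 8.67 TPM in +/+, at 6.46, 22.5 and 9.04 TPM in Cre/+ and at 9.77, 9.66 and 6.11 TPM in Cre/Cre. Cre/+ replicate 2 was 2.31 times the next library, and the other 8 lay within 6.11 to 9.77 TPM. Ifit1 (chr19:34640889-34650009, plus strand), whose product binds viral RNA that lacks the host's cap modification, was at 2.28, 3.78 and 5.67 TPM in +/+, at 4.27, 11.03 and 3.60 TPM in Cre/+ and at 3.09, 7.18 and 4.49 TPM in Cre/Cre. The highest value was again that of Cre/+ replicate 2, 1.54 times the next. Ifit3 (chr19:34583529-34588982, plus strand) was at 16.0, 16.7 and 20.4 TPM in +/+, at 21.1, 40.3 and 15.7 TPM in Cre/+ and at 15.5, 23.5 and 20.2 TPM in Cre/Cre. Cre/+ replicate 2 was 1.72 times the next library. Of the 150-base windows of the Ifit3 transcript, 18.5% also occur in Ifit3b, so the split of reads between these genes is uncertain. The share was 1.54% for H2-D1 with H2-Q1, 1.24% for Ifit1 with Ifit1bl2 and 0 for the other 6 members.

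Psmb8 (chr17:34198195-34201454, plus strand) encodes an interferon-induced catalytic subunit of the immunoproteasome. It was at 5.20, 4.55 and 7.23 TPM in +/+, at 4.20, 7.34 and 3.71 TPM in Cre/+ and at 5.18, 5.65 and 3.17 TPM in Cre/Cre. The genotypes overlapped, and Cre/+ replicate 2 and +/+ replicate 3 were the highest, 1.02-fold apart. Psmb8 stood at 3.15% of Psmb5, the constitutive subunit it replaces, with a range of 2.22% to 4.41% over the 9 libraries. The other inducible subunits were also low against their counterparts, Psmb9 at 1.35% of Psmb6 (0.701% to 2.08%) and Psmb10 at 5.86% of Psmb7 (4.39% to 6.93%).

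B2m (chr2:122147687-122153082, plus strand) encodes beta-2-microglobulin, the light chain shared by class I molecules. It was at 54.8, 52.0 and 60.5 TPM in +/+, at 56.4, 78.2 and 46.4 TPM in Cre/+ and at 47.9, 67.7 and 48.6 TPM in Cre/Cre. The genotypes overlapped, with Cre/+ replicate 2 highest and Cre/Cre replicate 2 next. H2-K1 (chr17:33996012-34000347, minus strand), a classical heavy chain, was at 36.0, 35.1 and 44.2 TPM in +/+, at 31.8, 35.2 and 28.8 TPM in Cre/+ and at 44.7, 54.8 and 38.1 TPM in Cre/Cre. The Cre/Cre libraries were all above the Cre/+ libraries, and +/+ overlapped both. H2-D1 (chr17:35263094-35267497, plus strand), the other classical heavy chain, was at 77.5, 78.1 and 88.6 TPM in +/+, at 68.1, 74.5 and 68.5 TPM in Cre/+ and at 74.6, 93.2 and 89.1 TPM in Cre/Cre. The Cre/+ libraries were all below those of both other genotypes, by little in the case of Cre/+ replicate 2 and Cre/Cre replicate 1. In neither heavy chain was Cre/+ replicate 2 the highest library.

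No member differed between Cre/+ and +/+ at an adjusted p of at most 0.05, in a limma fit of log2(TPM + 1) over all tested genes with Benjamini-Hochberg adjustment. In that contrast 1 of 15198 genes was called (0.00658%). The log2 fold changes of the members ran from -0.26 for H2-K1 to 0.49 for Ifit1, with a median of 0.05 against 0.00 over all genes, and their adjusted p-values from limma from 0.444 to 0.954. The largest positive differences were those of Ifit1 (0.49, SE 0.45), Isg15 (0.44, SE 0.42) and Ifit3 (0.41, SE 0.34). Each came with a 95% interval that reached below 0, for Isg15 from -0.55 to 1.43. Without Cre/+ replicate 2 the differences were 0.06 for Ifit1, -0.04 for Isg15 and 0.05 for Ifit3. The mean of the remaining 2 Cre/+ libraries was then 3.94 TPM for Ifit1, 7.75 TPM for Isg15 and 18.4 TPM for Ifit3, beside +/+ means of 3.91, 7.93 and 17.7 TPM. Leaving the library out also turned the difference of B2m from 0.08 to -0.12 and that of Irf7 from 0.05 to -0.21.

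H2-D1 was the single member whose unadjusted p in that contrast was under 0.05, a limit that 10.7% of tested genes passed. Its mean was 70.4 ± 3.57 TPM (SD, n = 3) in Cre/+ and 81.4 ± 6.26 TPM in +/+, a log2 fold change of -0.21 (SE 0.09) with a limma adjusted p of 0.444. The 2 groups did not overlap, which held for 10.3% of tested genes in this direction. The exact permutation test gave p = 0.1, two-sided, the smallest that 3 libraries against 3 allow. H2-K1 differed in the same direction (-0.26, SE 0.13, adjusted p 0.483 from limma), but its groups overlapped.

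Between Cre/Cre and +/+ the members were closer together. No member was called by limma, against 0.00658% of tested genes, and 0 had an unadjusted p under 0.05, against 6.97%. The 3 libraries of each genotype overlapped for every member, beside 10.8% of tested genes whose groups did not. Log2 fold changes ran from -0.24 for Psmb8 to 0.27 for Ifit1, with a median of 0.07 against -0.02 over all genes, and limma adjusted p-values from 0.777 to 0.995. Exact permutation p-values, two-sided, ran from 0.2 to 0.9. The intervals differed in width. That of H2-D1 reached from -0.13 to 0.26 on the log2 scale, whereas that of Isg15 reached from -0.92 to 1.06 and that of Ifit1 from -0.77 to 1.31. Over the 9 members the median SE was 0.21, beside 0.11 over all tested genes.

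Cre/Cre was then compared with Cre/+, which uses the same libraries again. The heavy chains were higher in Cre/Cre, at 45.9 ± 8.42 against 31.9 ± 3.23 TPM (SD, n = 3 each) for H2-K1 and 85.6 ± 9.80 against 70.4 ± 3.57 TPM for H2-D1. The log2 fold change was 0.50 (SE 0.13, interval 0.22 to 0.78) for H2-K1 and 0.27 (SE 0.09, interval 0.08 to 0.47) for H2-D1. Neither passed the limma adjustment over all genes (adjusted p 0.50 and 0.70), and 0.0132% of tested genes did. Both had an unadjusted p under 0.05, as did 6.58% of genes and 2.38% in this direction, and in both the groups did not overlap, as in 4.76% of genes in this direction. The exact permutation p was 0.1 for each, the smallest possible. Blood markers lay in the same order, with a summed level of 5 erythroid markers of 92.5 to 105 TPM in Cre/+, 150.5 to 182 TPM in +/+ and 185 to 300.5 TPM in Cre/Cre. The ganglion cell marker sum also parted these groups, at 1474 to 1530 TPM in Cre/+ and 1125 to 1357 TPM in Cre/Cre, with +/+ at 1546 to 1635 TPM. Its lowest value was that of Cre/Cre replicate 1, the library with 9.21% of its TPM in Rn45s. All other marker sums overlapped between Cre/+ and Cre/Cre, those of microglia, endothelium and Müller glia among them. The part of the blood or ganglion cell markers in the result was not tested. Over the alternative settings H2-K1 stayed higher in Cre/Cre, with limma adjusted p-values from 0.0796 to 0.967, and H2-D1 with values from 0.303 to 0.967. The other 7 members ran from -0.37 for Isg15 to 0.05 for Irf1, and without Cre/+ replicate 2 the difference of Isg15 was 0.11.

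A trend over 0, 1 and 2 knock-in alleles was the comparison of genotypes, of those run, that could pass 0.05 by exact permutation. No member did, with slopes from -0.12 to 0.14 on the log2 scale for each allele and exact two-sided p-values from 0.318 to 0.926. By limma 0 members were called and 0 had an unadjusted p under 0.05, beside 0.00658% and 6.24% of tested genes.

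**Figure D2:**
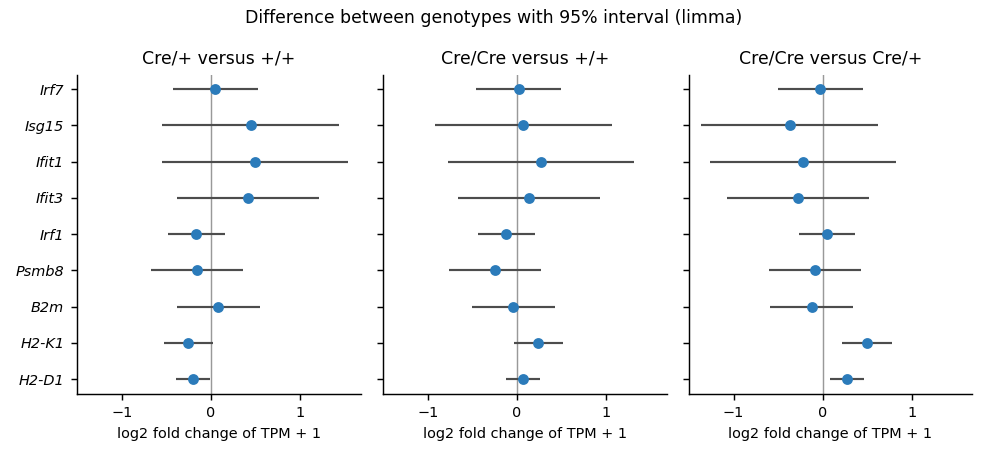
Log2 fold changes of the 9 members (x axis) with 95% intervals from limma in the 3 comparisons of genotypes. Points are estimates and lines the intervals. Those of Isg15, Ifit1 and Ifit3 are the widest, that of H2-D1 lies below 0 in Cre/+ against +/+ (-0.40 to -0.01), and in Cre/Cre against Cre/+ H2-K1 (0.22 to 0.78) and H2-D1 (0.08 to 0.47) lie above 0.

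Most of the spread of the antiviral members came from 1 library. Cre/+ replicate 2 was the highest of the 9 libraries for 6 of 9 members, as it was for 8.62% of tested genes. Against the mean of the other 8 libraries its level was 2.78 times for Isg15, 2.57 times for Ifit1, 2.16 times for Ifit3, 1.52 times for Irf7, 1.51 times for Psmb8 and 1.44 times for B2m. The remaining members were near or under that mean, with Irf1 at 1.03, H2-D1 at 0.934 and H2-K1 at 0.899 times. Against that mean, which mixes the genotypes, the light chain of class I was thus high and both classical heavy chains were not. Within Cre/+ alone, replicate 2 was the highest for both heavy chains. H2-K1 was at 35.2 TPM there, against 31.8 and 28.8 TPM in Cre/+ replicates 1 and 3. H2-D1 was at 74.5 TPM, against 68.1 and 68.5 TPM. The Dixon gap is the distance to the next library over the whole range of the 9. By this gap Cre/+ replicate 2 stood apart in 2 members, Isg15 and Ifit3, and no other library did in any member. In 7.19% of tested genes some library stood apart. With that library the Cre/+ mean of Isg15 was 12.7 ± 8.63 TPM (SD, n = 3), an SD larger than the +/+ mean.

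The same library was high in many other genes of the interferon system. Of 173 genes on lists of the pathway, 114 passed the filter, and 57 of these were highest in Cre/+ replicate 2. By the same gap the library stood above the others in 25 of the 114 and in 0.342% of all tested genes. No other library stood above the rest in any list gene by this measure. The genes were seen to stand apart before they were counted, so the counts describe this library only.

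**Figure D3:**
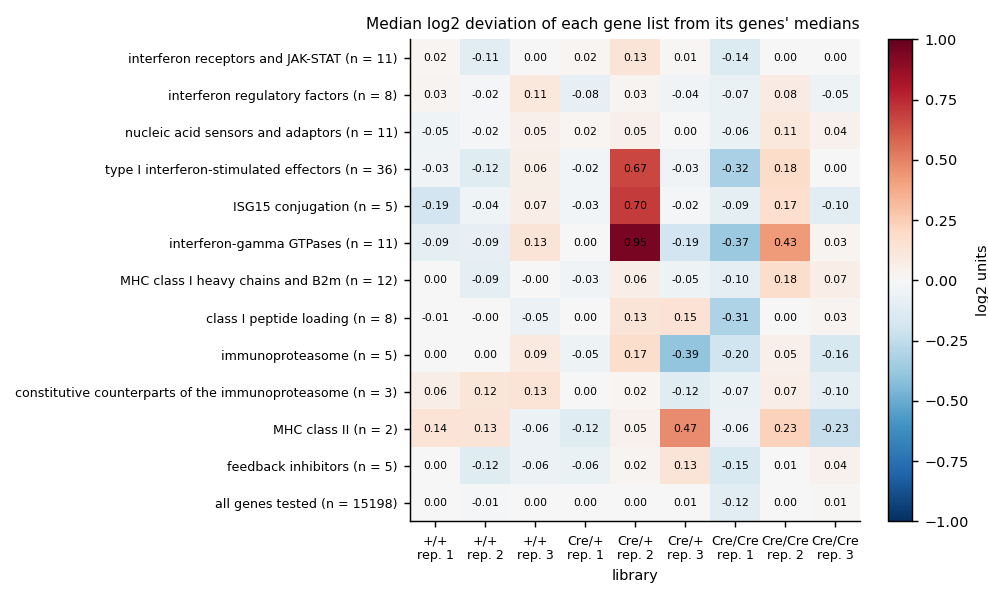
Median over the genes of each list of the deviation from the gene's own median over the 9 libraries, in log2(TPM + 1) (colour and number), by list (rows) and library (columns). In Cre/+ replicate 2 the median was 0.95 for the interferon-gamma GTPases, 0.70 for ISG15 conjugation and 0.67 for type I effectors, beside 0.06 for class I chains and 0.00 over all tested genes.

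The counts are given here by the roles of the genes. Among the type I effectors 27 of 36 tested genes were highest in Cre/+ replicate 2, and 12 stood apart. Oasl2, of the family of oligoadenylate synthetases that sense double-stranded RNA, was at 40.2 TPM there and at most 14.9 TPM elsewhere, and Oas1b of the same family at 7.95 against at most 2.14 TPM. Eif2ak2, the kinase PKR that halts translation when it binds double-stranded RNA, was at 13.2 against at most 7.47 TPM, and Ifit3b at 24.6 against at most 15.1 TPM. Adar and Znfx1, the effectors with the highest mean levels (75.5 and 27.0 TPM), did not stand apart. Among the interferon-gamma GTPases, some of which attack the membranes around intracellular microbes, 8 of 11 were highest there and 7 stood apart. These included Gbp3 at 17.5 against at most 6.11 TPM, Gbp6 at 20.2 against at most 8.20 TPM and Irgm1 at 15.2 against at most 9.40 TPM.

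All 5 genes of ISG15 conjugation were highest in that library, and 2 stood apart, Isg15 itself and Usp18, the protease that removes ISG15 and damps the receptor, at 7.42 against at most 3.62 TPM. The enzymes Uba7 and Ube2l6, which activate and pass on ISG15, were at 6.04 and 9.30 TPM there. Of the receptors and JAK-STAT genes 4 of 11 were highest and 2 stood apart, among them Irf9 (39.2 against at most 27.6 TPM), a subunit of the complex that binds the ISRE. The receptor chain Ifngr1 and the kinase Jak1 were at 52.7 and 92.4 TPM there, within their ranges of 41.2 to 54.1 and 82.5 to 101 TPM. Of the sensors 4 of 11 were highest, and the RNA sensors Ddx58 (9.51 against at most 5.24 TPM) and Ifih1 (5.88 against at most 3.81 TPM) stood apart, while the kinase Tbk1 and the adaptor Mavs did not.

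In the class I pathway fewer genes stood apart by count, and the lists were not tested against each other. Of 12 tested class I chains 4 were highest in Cre/+ replicate 2, and the 1 that stood apart was the non-classical chain H2-T23, at 17.7 against at most 10.8 TPM. H2-T24 and H2-T22, the chains with the highest mean levels outside the members, were also highest there (21.6 and 13.96 TPM) without standing apart. Of 8 peptide loading genes 2 were highest and 0 stood apart, and Calr and Canx, the chaperones with the highest levels, averaged 559 and 327 TPM. Of 5 immunoproteasome genes 3 were highest, namely Psmb8 and the activator subunits Psme1 (79.2 TPM) and Psme2 (73.8 TPM), and 0 stood apart. Psmb9, whose gene product is built into the immunoproteasome together with that of Psmb8, was in contrast at 1.28 TPM there, below the 1.34 to 3.92 TPM of the other 8 libraries. This gene was chosen after its values were seen. Of the 2 tested class II genes, H2-DMa and H2-Ab1, and of the 3 constitutive proteasome subunits 0 were highest there. Of the 8 interferon regulatory factors Irf7 and Irf9 were highest, while Irf3 (74.4 TPM) and Irf2 (33.1 TPM) did not stand apart, and of the 5 feedback inhibitors Usp18 alone was highest there.

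**Figure D4:**
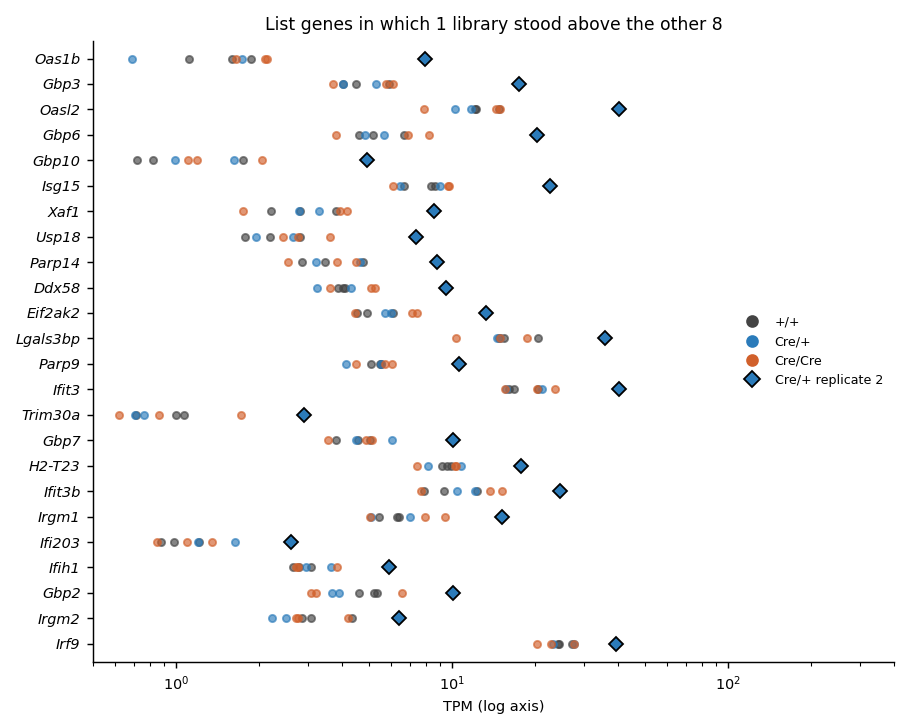
Levels in TPM (x axis, logarithmic) of genes of the lists that stood apart in Cre/+ replicate 2, with a diamond for that library and a circle for each of the other 8, coloured by genotype. Every gene shown has its highest value in that library, from 2.60 TPM for Ifi203 to 40.3 TPM for Ifit3.

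The interferons themselves were at or near 0. Of 13 ligand genes 10 were listed at 0 in all 9 libraries, Ifnb1 among them, and the highest mean was 0.167 TPM, for Ifnz. In Cre/+ replicate 2 Ifnz was at 0.0171 TPM and Ifng at 0. None of 6 interferon-induced chemokines passed the filter, and Cxcl10, which draws T cells, was at 0.435 TPM in that library within a range of 0 to 1.28 TPM. At these levels a difference was not detectable.

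Marker lists of other cells were read beside this pattern. The summed level of 15 microglial markers was 101 TPM in Cre/+ replicate 2, the second highest in a range of 87.3 to 103 TPM. That of 10 listed lymphocyte markers was 1.75 TPM in a range of 1.28 to 2.89 TPM, with 3 of them at 0 in all libraries. That of 11 markers of dendritic cells, monocytes and neutrophils was 31.6 TPM and the highest, with the next at 22.4 TPM. Of this sum 22.2 TPM were Bst2, which is itself an interferon-stimulated gene. Of the rest, Siglech (1.61 TPM), Flt3 (2.69 TPM) and Zbtb46 (4.57 TPM) were within the range of the other libraries, and S100a9 was at 0.40 TPM, where 7 of the other 8 were at 0. Xcr1 was at 0.151 TPM, the lowest of the 9, and the remaining 5 were at 0 there, as each was in other libraries too. The lens marker sum was the lowest, 13.99 TPM against 78.3 to 1050 TPM elsewhere, and the endothelial sum, 232 TPM, was the eighth of 9. Their part in the result was not tested.

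Over all 114 tested list genes limma called none in any comparison of genotypes. In Cre/+ against +/+ 4 were higher and 4 lower at an unadjusted p under 0.05, or 3.51% each way, beside 4.9% and 5.82% of all tested genes. The counts were 3 and 5 (2.63% and 4.39%) for Cre/Cre against +/+, beside 1.58% and 5.39% of all tested genes, and 4 and 4 for Cre/Cre against Cre/+, beside 2.38% and 4.2%. The lists moved with the library described above. For the type I effectors the median log2 fold change of Cre/+ against +/+ was 0.24 with 30 of 36 above 0, and without Cre/+ replicate 2 it was 0.00 with 18 of 36 above 0. For the interferon-gamma GTPases the median was 0.25, and -0.04 without that library. Class I chains had a median of 0.10, and -0.02 without it. The immunoproteasome list, none of whose genes was called, had a negative median in Cre/+ with and without that library, at -0.16 and -0.41 over 5 genes, of which 1 was above 0 in either case. In Cre/Cre against +/+ its median was -0.20, again with 1 of 5 above 0. The 3 constitutive counterparts lay on the same side, with 0 of 3 above 0 and medians of -0.13 in Cre/+ (-0.15 without that library) and -0.15 in Cre/Cre. Within that list Psmb9 had the largest differences, -0.71 (SE 0.23) in Cre/+ and -0.52 (SE 0.23) in Cre/Cre against +/+, with limma adjusted p-values of 0.377 and 0.695.

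Some members moved together from library to library. Over the 9 libraries 5 of 36 pairs passed an exact permutation test of Pearson's r with Benjamini-Hochberg adjustment over the pairs. Ifit1 with Ifit3 had r = 0.930 and Spearman's ρ = 0.900 (exact permutation, adjusted p 0.00511 and 0.0243). Irf7 with Psmb8 had r = 0.907 and ρ = 0.933 (adjusted exact p 0.00511 for r and 0.0243 for ρ). B2m was correlated with Irf7 (r = 0.891, ρ = 0.817), with Ifit3 (r = 0.884, ρ = 0.900) and with Ifit1 (r = 0.841, ρ = 0.750). The adjusted exact permutation p-values were 0.0168, 0.0168 and 0.0336 for r and 0.0969, 0.0243 and 0.153 for ρ. By rank B2m thus missed the limit with Irf7 and with Ifit1. The heavy chains H2-K1 and H2-D1 were correlated with each other at r = 0.788 and ρ = 0.733 (adjusted exact p 0.0554 for r), which missed the limit, and H2-K1 was at r = 0.06 with Isg15.

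**Figure D5:**
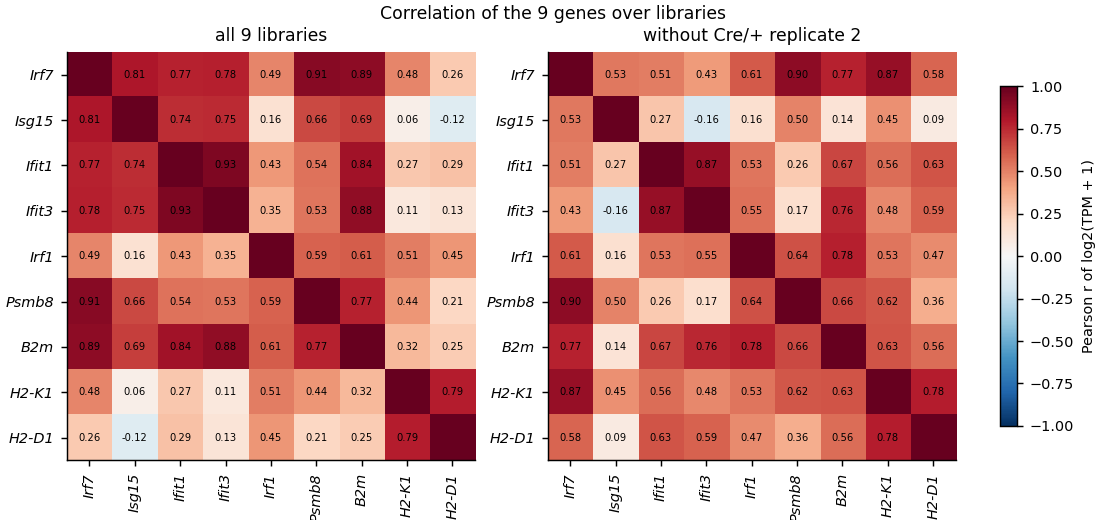
Pearson's r between the 9 members over the 9 libraries on log2(TPM + 1), as matrices of genes by genes with r as colour and number, for all 9 libraries (left) and without Cre/+ replicate 2 (right). On the left Ifit1, Ifit3, Irf7, Psmb8 and B2m form the pairs with the highest r, up to 0.930, and the heavy chains are near 0 with Isg15. On the right H2-K1 is at 0.45 and H2-D1 at 0.09 with Isg15.

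These relations rested in part on 1 library. Without Cre/+ replicate 2, 0 of 36 pairs passed, with r = 0.870 for Ifit1 and Ifit3 and r = 0.895 for Irf7 and Psmb8 (adjusted exact p 0.054 for both). The 3 correlations of B2m were then r = 0.773 with Irf7, 0.756 with Ifit3 and 0.665 with Ifit1. Other pairs rose without that library. H2-K1 went from r = 0.485 to 0.872 with Irf7 (adjusted exact p 0.0560) and from 0.06 to 0.454 with Isg15. The median r over all 36 pairs was 0.522 with that library and 0.552 without it. Without the 2 libraries farthest from the median of the first gene of a pair, 0 of 36 passed as well, with r = 0.891 for Ifit1 and Ifit3, 0.947 for Irf7 and Psmb8 and 0.355 for B2m and Ifit1. On deviations from the genotype means 14 of 36 pairs passed. Such deviations sum to 0 within each genotype and are not 9 independent values. Their p-values may thus be too small, and this count cannot be set against the others.

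Of all tested genes outside the members, those most like the mean profile of Irf7, Isg15, Ifit1 and Ifit3 over the 9 libraries were Gbp10 (r = 0.964), Rnf213 (0.942), Gbp6 (0.936), Usp18 (0.936) and Ifih1 (0.931). Without Cre/+ replicate 2 their r was 0.855, 0.725, 0.711, 0.709 and 0.701. Among the 20 genes most like this profile 16 were on the interferon lists. Genes were also ranked by r to the mean profile of B2m, H2-K1, H2-D1 and Psmb8. The highest were Nosip (r = 0.920), B3galt4 (0.916), Trim43a (0.912), Txnip (0.909) and Med30 (0.901). Of the 20 genes most like this profile 1 was on the lists. Among the pairs of these members themselves 0 of 6 passed, with a median r of 0.382. The r values to either profile were picked as the highest of all tested genes over 9 libraries and were not tested. Nosip and the genes named after it are thus not shown to share a profile with these members.

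B2m and Irf1 were also ordered by Y-linked transcripts. In the 3 libraries with such transcripts B2m was at 46.4 to 48.6 TPM against 52.0 to 78.2 TPM in the other 6, and Irf1 at 6.00 to 7.16 against 7.30 to 8.92 TPM. Such an order was found in 2 of 9 members and in 2.38% of tested genes, and the opposite order in 0 members and 0.546% of genes. Since 0 of the +/+ libraries carried Y-linked transcripts, this order and the genotype cannot be told apart in full, and its part in the comparisons of genotypes was not tested beyond a fit with Xist as a covariate.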

How the data were processed

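The 9 libraries, 3 of each genotype, were grouped by the genotype in their labels. Per the labels, the authors used Trimmomatic for trimming, HISAT2 for alignment (mm10) and StringTie for quantification, library by library. Versions and annotation are not given in the sources used here. The deposited TPM come to a sum of 1000000 in each library, the deposited FPKM are per length and depth before that scaling, and the deposited coverage is the mean read depth over a gene. Without read counts in these tables, neither the DESeq2 test that the study names nor a counting error could be computed.

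TPM of rows with the same symbol were summed. Genes with a mean of at least 1 TPM over the 9 libraries were tested with limma 3.58.1 in R 4.3.3, with trend and robust prior, on log2(TPM + 1), with all 9 libraries in 1 model with 6 residual degrees of freedom and Benjamini-Hochberg adjustment over 15198 genes. A gene was called at an adjusted p of at most 0.05, with a 2-fold limit as a second rule. Fold changes on this scale understate changes of low genes. Exact permutation tests over libraries were run in Python 3.11.15 with numpy 2.4.6, with ranks from scipy 1.17.1, and the limma fit was tested on simulated data.

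The members, lists and tests were chosen with earlier results of these data known. Genes named beside the members were, in each list, the 2 with the highest mean, those called, and the 5 most like the antiviral and the class I members. Some genes of the lists are not reported here. Markers were named where their level stands beside a result. Genes named because they stood apart in Cre/+ replicate 2, Rbpms, Rn45s and Psmb9 fall outside that rule and were chosen after values were seen. Promoters came from RefSeq (GRCm38.p6), with all 9 members matched, and shared transcript windows from GENCODE transcripts of GRCm38. Gene positions are those of the deposited tables. Alternatives were a pseudocount of 0.1, no filter, median-ratio scaling, FPKM, rescaling without Rn45s and a few other abundant RNAs (4 symbols in all), a replicate block, Xist as a covariate, only the genotypes compared, no robust prior, the highest row of a symbol, and each library left out in turn. Those chosen after seeing the data were the correlations without Cre/+ replicate 2, and the counts of genes highest in that library under other scalings.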

Additional observations from a re-analysis of the deposited data

Results flagged for a closer look

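Isg15 and Ifit3 each had 1 library far from the other 8, Cre/+ replicate 2 in both. For Isg15 the gap between that library (22.5 TPM) and the next (9.77 TPM) was 0.777 of the whole range of the 9 libraries, and for Ifit3 the gap between 40.3 and 23.5 TPM was 0.677 of the range. Both passed Dixon's limit for 9 values, as chance does in about 1 of 20 groups. Ifit1 had its highest value in the same library without passing that limit. Of all tested genes, 0.342% stood above the rest in that library by this measure.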

How the results depend on the processing

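No member was called by limma in any comparison under any alternative run. No list gene was called under those run for the lists, which were a pseudocount of 0.1, no filter, median-ratio scaling, FPKM, rescaling without Rn45s, Xist as a covariate and each library left out in turn. Of 513 differences of members over the alternatives 476 kept their direction and 37 turned, and 0 came to be called. The count that kept direction overstates stability, since some alternatives leave a member's difference unchanged by design. These were no filter, the replicate block, no robust prior, the highest row of a symbol and only the genotypes compared. Leaving out a library of the genotype not compared also changes no difference.

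Outside the leave-one-out fits, FPKM turned Irf7 in Cre/Cre against +/+ to -0.0242 (log2 throughout). Rescaling without Rn45s gave 0.0140 for B2m in Cre/Cre against +/+ and 0.0280 for Irf7 in Cre/Cre against Cre/+, and median-ratio scaling gave 0.0081 for the latter. With Xist as a covariate Cre/Cre against +/+ was 0.29 for B2m, 0.10 for Irf1 and 0.0346 for Psmb8, and Cre/Cre against Cre/+ was 0.0442 for B2m, 0.11 for Irf7, 0.0447 for Ifit1 and 0.0576 for Psmb8. The cause was not tested.

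With each library left out in turn, Cre/+ against +/+ ran from -0.12 to 0.25 for B2m, -0.21 to 0.20 for Irf7, -0.0379 to 0.79 for Isg15 and -0.41 to 0.0049 for Psmb8. Cre/Cre against +/+ ran from -0.20 to 0.0438 for B2m, -0.0948 to 0.15 for Irf7 and -0.0291 to 0.27 for Isg15. Cre/Cre against Cre/+ ran from -0.29 to 0.0770 for B2m, -0.18 to 0.23 for Irf7, -0.0727 to 0.11 for Irf1, -0.72 to 0.11 for Isg15, -0.49 to 0.21 for Ifit1, -0.56 to 0.0914 for Ifit3 and -0.25 to 0.17 for Psmb8.

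Of 36 pairs of members 5 were correlated, but 0 without the 2 libraries farthest from the median, 0 without Cre/+ replicate 2 and 8 with median-ratio scaling. On deviations from the genotype means, where p-values may be too small, 14 were. Cre/+ replicate 2 was the highest library for 57 of 114 list genes, for 60 with median-ratio scaling, 56 in FPKM and 57 with the highest row of each symbol. The number of genes called over the whole table was 1, 1, 2 and 1 in the 3 comparisons and the trend, and 0 to 5, 1 to 7, 1 to 8 and 1 to 4 over the alternatives.

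Replicate numbers did not pair the libraries, since same-numbered libraries of different genotypes had correlations of their deviations from -0.116 to 0.128 and 3 of 9 libraries were most like one of their own number. With the replicate block 0 members were called in each comparison. The limits are 3 libraries for each genotype, no read counts, 1 library that sets most of the spread of the antiviral members, and sex that was not balanced over the genotypes.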
